A study of Mus musculus with 4 samples.

Results

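Syt8, Tnni2 and Lsp1 lie side by side on mouse chromosome 7, near the imprinted H19 and Igf2 genes, and all 3 had low values in growth plate chondrocytes labelled Ift88-deleted. The neighbourhood described here runs from Ctsd to Th and was defined by 9 gene symbols: Ctsd, Syt8, Tnni2, Lsp1, Tnnt3, Mrpl23, H19, Igf2 and Th. Of the 45037 probe sets analysed, 11 name exactly one of these symbols, and they cover 8 of the 9 genes. H19 had no probe set of its own, since the probe set that names it also names Mir675. The neighbourhood was picked because the 3 neighbours were low on both Ift88-deleted arrays, so their differences between the groups are a description and were not tested.

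The samples were chondrocytes of the proliferative zone, where growth plate cells divide, needle-dissected from proximal tibia and distal femur of mice at postnatal day 7. There were 2 samples from Col2aCre;Ift88fl/fl mice, labelled Ift88-deleted, and 2 from mice labelled wild-type, all on the C57BL/6 background and all called biological replicates. In the mutants a Cre recombinase driven by Col2a removes Ift88, whose product carries cargo along the primary cilium and is needed to build it, so deletion is limited to cells that express or have expressed this transgene. Whether the control mice carried the Cre or the floxed alleles, and whether a sample came from 1 or several mice, is not given in the sources used here.

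Each value is a log2 distance from the probe set's own median over the 4 arrays. These give differences between arrays and no levels, and with 4 arrays the middle pair of values is equal in size and opposite in sign by construction. Of the 35 probe sets of chondrocyte genes such as Col2a1, Acan and Matn1, 29 belonged to the brightest class, with a lowest original log2 value of 8 or more. Over all probe sets the difference of the 2 group means had an SD of 0.289. The difference between both Ift88-deleted arrays had one of 0.279 and that between both control arrays one of 0.381. Means of 2 arrays vary less than single arrays, so the first SD is not directly comparable with the others. The only probe set of Ift88 itself was at 0.22 and -0.069 in Ift88-deleted arrays and at 0.069 and -0.078 in control arrays, a difference of 0.08 with overlapping groups. Where its probes lie relative to the deleted part of the gene is not given in the sources used here, so it does not check the labels, and the groups are called by their labels. Genotype and sex divided the arrays in the same way: a probe set of Xist was at -3.83 and -3.92 in Ift88-deleted arrays and at 3.83 and 3.86 in control arrays, and one of Eif2s3y, a Y-linked gene, at 3.48 and 3.15 in Ift88-deleted arrays and at -3.15 and -3.40 in control arrays. For every value below, the genotype and the sex read from these genes cannot be told apart. In tissue samples such as these, fewer cells of a type and less RNA per cell cannot be told apart either.

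The genes of the region have several functions. Tnni2 and Tnnt3 encode the inhibitory and the tropomyosin-binding troponin subunits of fast skeletal muscle, which together with troponin C make thin filaments sensitive to calcium. Syt8 belongs to the synaptotagmins, membrane proteins of vesicle trafficking. Lsp1 encodes an actin-binding protein known best from leukocytes. Ctsd encodes the lysosomal aspartic protease cathepsin D, Mrpl23 a protein of the mitochondrial ribosome, and Th tyrosine hydroxylase, the rate-limiting enzyme of catecholamine synthesis. H19 and Igf2 are a classic imprinted pair: the H19 RNA is made from the maternal copy and the fetal growth factor gene Igf2 from the paternal copy, under a shared control region.

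In GRCm38.p6 the 3 genes with low values occupied 60 kb, from the start of Syt8 to the end of Lsp1. Syt8 (chromosome 7, 142434850 to 142440396) and Tnni2 (142441816 to 142444410) were separated by 1419 bases, and Tnni2 and Lsp1 (142458223 to 142494868) by 13812 bases. The annotation places 4 genes with their start inside this stretch, Syt8, Tnni2, Lsp1 and the long non-coding RNA gene Prr33, and 3 of them had a probe set of their own. On one side Ctsd (142375910 to 142387827) lay 47022 bases away. On the other, Tnnt3 (142498771 to 142516213) began 3902 bases past the end of Lsp1. Mrpl23 (142532467 to 142540747), H19 (142575530 to 142578146), Igf2 (142650768 to 142666816) and Th (142892779 to 142899995) followed. The whole stretch from Ctsd to Th measured 524 kb and held the starts of 21 annotated genes.

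The promoter windows of 2 neighbours with unlike values, Syt8 and Ctsd, are given here from RefSeq's GRCm38.p6 table, which holds windows of 5 of the 9 genes. Each runs from 250 bases before to 50 bases after an annotated start. Syt8 has several annotated starts, and the outermost pair is shown. The single capital letter at base 251 marks the start, and a run of capitals marks a match to one of the motifs searched. The windows are Syt8 chr7:142434600-142434899 (plus strand), Syt8 chr7:142436584-142436883 (plus strand) and Ctsd chr7:142387778-142388077 (minus strand).
Syt8, first start: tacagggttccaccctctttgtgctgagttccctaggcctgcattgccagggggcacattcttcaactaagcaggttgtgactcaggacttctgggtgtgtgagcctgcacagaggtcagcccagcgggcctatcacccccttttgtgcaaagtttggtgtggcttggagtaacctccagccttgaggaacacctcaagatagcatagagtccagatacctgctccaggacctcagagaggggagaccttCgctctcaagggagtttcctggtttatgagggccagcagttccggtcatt
Syt8, downstream start: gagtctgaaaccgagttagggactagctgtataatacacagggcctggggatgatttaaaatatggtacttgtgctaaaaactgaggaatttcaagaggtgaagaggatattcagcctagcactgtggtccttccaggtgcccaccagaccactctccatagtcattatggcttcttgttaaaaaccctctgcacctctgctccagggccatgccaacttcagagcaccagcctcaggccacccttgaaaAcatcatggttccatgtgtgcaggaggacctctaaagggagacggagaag
Ctsd: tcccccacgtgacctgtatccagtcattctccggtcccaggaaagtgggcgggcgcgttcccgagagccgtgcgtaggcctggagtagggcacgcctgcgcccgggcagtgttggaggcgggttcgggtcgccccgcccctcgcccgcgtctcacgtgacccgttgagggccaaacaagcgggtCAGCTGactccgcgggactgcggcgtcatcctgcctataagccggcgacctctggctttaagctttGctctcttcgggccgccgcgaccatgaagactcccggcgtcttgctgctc
Both strands were searched for 4 short motifs, none of which contains another. The E-box CAGCTG was found once in the Ctsd window, and 16.3% of all 32851 promoter windows hold it. The Syt8 windows held no match to any of the 4. No window of Tnni2, Lsp1, Tnnt3 or H19 was available, so the promoters of these genes were not searched. Of all windows 13.6% hold the TATA element, spelled TATAAA, and 10.7% hold a SOX-type core, spelled AACAAT. An Igf2 window, not printed here, held AACAAT once. The GLI-type site GACCACCCA is held by 0.253% of windows.

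Tnni2 had the lowest values of the neighbourhood in Ift88-deleted chondrocytes. Its probe set 1416889_at was at -1.38 and -1.77 in Ift88-deleted arrays and at 1.81 and 1.38 in control arrays. The groups were 2.76 apart at their nearest, against 0.39 between both Ift88-deleted and 0.43 between both control arrays. The difference of the means was -3.17 (SE 0.221, n = 2 per group), 9.01-fold lower, the 7th from the lowest of the 45037 probe sets. Probe set 1438609_x_at of Tnni2 was at -1.16 and -1.64 in Ift88-deleted arrays and at 1.16 and 1.26 in control arrays. It too kept the groups well apart, and its difference was -2.61 (SE 0.202), or 6.1-fold lower. The suffix x marks probes that may bind other transcripts.

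A further probe set of Tnni2, 1438608_at, did not show this. It was at -0.026 and -0.0022 in Ift88-deleted arrays and at 0.19 and 0.0022 in control arrays, a difference of -0.11 (SE 0.146). The groups were apart by only 0.0044. This probe set was of the dimmest class, with a lowest original log2 value between 2 and 4, whereas the other Tnni2 probe sets were of the class from 4 to 8. The annotation derives 1438608_at and 1438609_x_at from the same sequence record, so the probe sets of Tnni2 are not separate observations. The mean over the 3 gave a difference of -1.96.

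Lsp1 differed little between both Ift88-deleted arrays. Its only probe set, 1417756_a_at, was at -1.09 and -1.11 in Ift88-deleted arrays and at 1.50 and 1.09 in control arrays. The Ift88-deleted arrays differed by 0.023 and the control arrays by 0.41, while the groups were 2.18 apart at their nearest. The difference was -2.40 (SE 0.183), 5.27-fold lower, the 19th from the lowest of all probe sets. The class of its lowest original value was 4 to 8.

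Syt8 had the smallest difference of the 3 and the widest spread between controls. Probe set 1450800_at was at -0.72 and -0.83 in Ift88-deleted arrays and at 1.48 and 0.72 in control arrays. Control 1 stood 0.76 above control 2, but both lay above the Ift88-deleted arrays, by 1.44 at the nearest. The difference was -1.88 (SE 0.269), 3.67-fold lower, and the 35th from the lowest.

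Over the low probe sets, control 1 was the higher control for Syt8, Lsp1 and Tnni2 1416889_at and the lower one for Tnni2 1438609_x_at. Without control replicate 1 the difference of Syt8 was -1.50, and without control replicate 2 it was -2.26. As single arrays were left out, Lsp1 ran between -2.60 and -2.19 and Tnni2 1416889_at between -3.39 and -2.96.

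**Figure D1:**
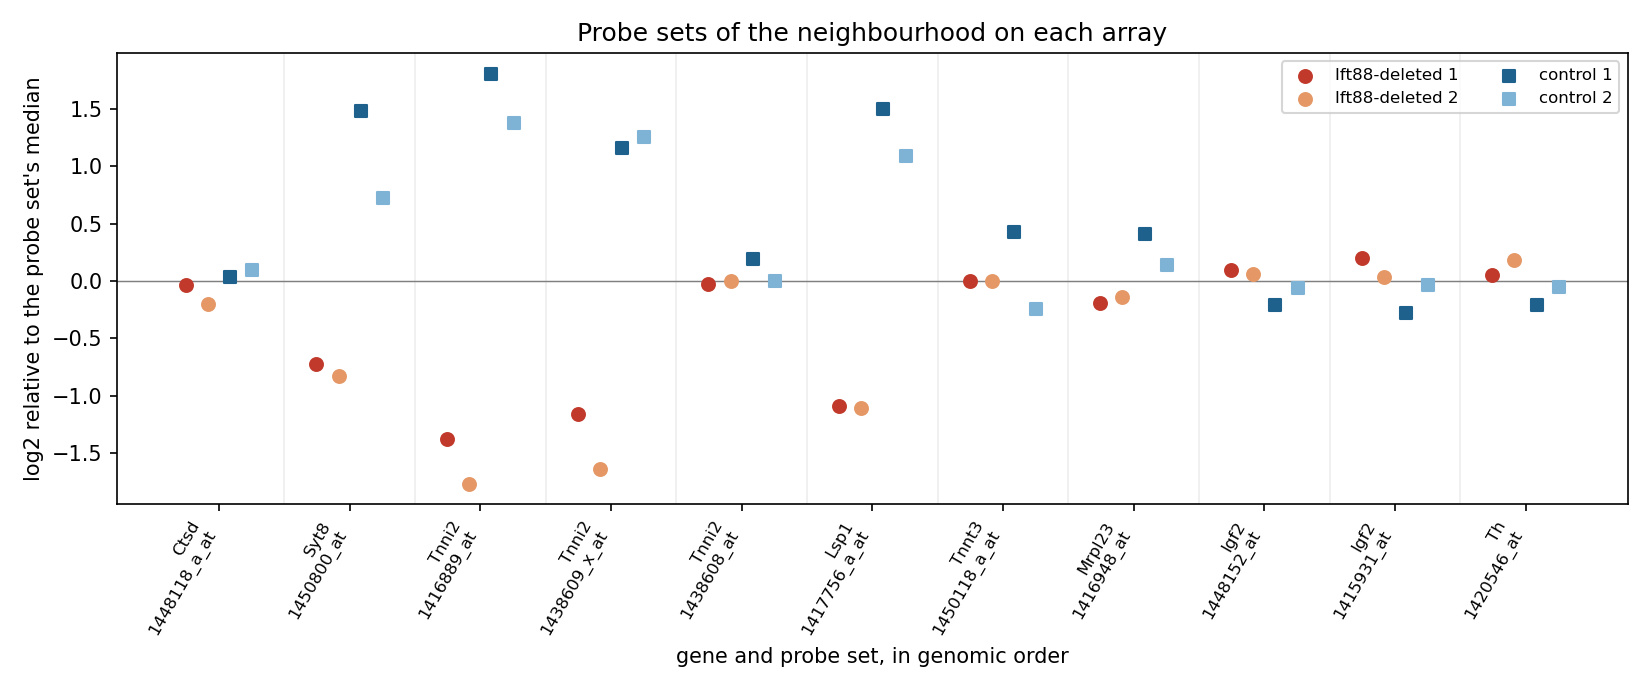
Log2 value relative to the probe set's median (vertical axis) of the 11 probe sets from Ctsd to Th, in genomic order, with 1 point per array (circles, Ift88-deleted; squares, control). Syt8, 2 probe sets of Tnni2 and Lsp1 separate the groups by 1.44 to 2.76, and no other probe set does so by more than 0.27.

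The genes on either side of the low stretch had differences under 0.5 in size. Ctsd, the neighbour before Syt8, was at -0.038 and -0.20 in Ift88-deleted arrays and at 0.038 and 0.10 in control arrays, a difference of -0.19 (SE 0.144). The groups were apart by 0.076, less than the 0.16 between both Ift88-deleted arrays. Tnnt3, the partner of Tnni2 in the fast troponin complex and the next measured gene after Lsp1, was at -0.0036 and 0.0036 in Ift88-deleted arrays and at 0.43 and -0.24 in control arrays. Its groups overlapped, and its difference of -0.095 (SE 0.242) was smaller than the 0.67 between both controls. The sign of this difference turned when control replicate 1 was left out, where it was 0.24.

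Mrpl23 came next and was lower by a small amount. It was at -0.19 and -0.14 in Ift88-deleted arrays and at 0.41 and 0.14 in control arrays, a difference of -0.43 (SE 0.158), 1.35-fold lower. The gap between the groups, 0.27, was as wide as the range between both controls. Mrpl23 and Ctsd were of the brightest class.

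Past H19, the values ran the other way by small amounts. Igf2 probe set 1448152_at was at 0.10 and 0.063 in Ift88-deleted arrays and at -0.21 and -0.063 in control arrays, a difference of 0.22 (SE 0.142). Igf2 probe set 1415931_at was at 0.20 and 0.033 in Ift88-deleted arrays and at -0.28 and -0.033 in control arrays, a difference of 0.27 (SE 0.162). Both probe sets of Igf2 were thus slightly higher in both Ift88-deleted arrays, by gaps of 0.13 and 0.067 that were smaller than the range between controls. Th was at 0.055 and 0.18 in Ift88-deleted arrays and at -0.21 and -0.055 in control arrays, a difference of 0.25 (SE 0.147), with a gap of 0.11.

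Of the 11 probe sets 7 were lower in both Ift88-deleted arrays than in both controls, beside 17.4% of all probe sets, and 3 were higher in both, beside 16.2%. With a log2 difference of at least 1 as well, there were 4 lower and 0 higher, beside 0.422% and 0.333% of all probe sets. The median over the 11 was -0.189, and over all probe sets it was 0.00153. Leaving out the second Ift88-deleted array put the median over the members at -0.123, and leaving out the second control array put it at -0.427. It was -0.311 with gene means or once the dimmest class was dropped. Since the neighbourhood was chosen on this contrast, nothing is read from these counts. They also rest on unequal gaps, since Ctsd and Tnni2 1438608_at count as lower with gaps under 0.1.

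Differences of the size of Syt8, Tnni2 and Lsp1 were not found in the genes around them. From 1 Mb before Ctsd to 1 Mb past Th, 51 other genes had 85 probe sets, with a median difference of -0.0304 and differences between -1.49 and 0.99. By limma 0 of these passed an adjusted p of 0.05. Of all 45037 probe sets 20 (0.0444%) did, 10 lower (0.0222%) and 10 higher (0.0222%). Among the 20 were probe sets of the X-linked gene Xist, which were lower. Those of the Y-linked genes Uty, Kdm5d and Eif2s3y among them were higher. The 20 came to 9 to 12 with 1 array left out, 5 with the replicate number as a block and 2 with gene means or without moderation of the spread. At an unadjusted p under 0.05 there were 2 lower and 2 higher of the 85, beside 6.17% of all probe sets in either direction. Lower in both Ift88-deleted arrays were 16 of the 85 (18.8%) and higher in both 10 (11.8%), beside 17.4% and 16.2% of all probe sets.

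Ifitm10, the measured gene next to Ctsd, had the highest of these differences. It was at 0.29 and 0.70 in Ift88-deleted arrays and at -0.70 and -0.29 in control arrays (0.99, SE 0.221, adjusted p = 0.561 by limma). The keratin-associated protein genes Krtap5-4 (0.088) and Krtap5-1 (0.14 and 0.15), which come before it, had overlapping groups, as had Igf2os (-0.084) and Ins2 (0.016), an insulin gene, next to Igf2. Past Th, Ascl2 had probe sets at -0.15, 0.012 and 0.25, Tspan32 at -0.85 and -0.071 and R74862 at -0.03. The Tspan32 value of -0.85 came with 1.14 in control 1 and 0.073 in control 2.

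A log2 difference of 1 or more in size was found in 2 of the 85 probe sets, both lower. Phlda2, an imprinted gene that restrains placental growth, was at -0.60 and -1.10 in Ift88-deleted arrays and at 0.60 and 0.68 in control arrays (-1.49, SE 0.203, adjusted p = 0.292 by limma). Taldo1, an enzyme of the pentose phosphate pathway, was at -0.26 and -0.99 in Ift88-deleted arrays and at 0.58 and 0.26 in control arrays (-1.05, SE 0.276, adjusted p = 0.675 by limma). Neither reached the size of Syt8.

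**Figure D2:**
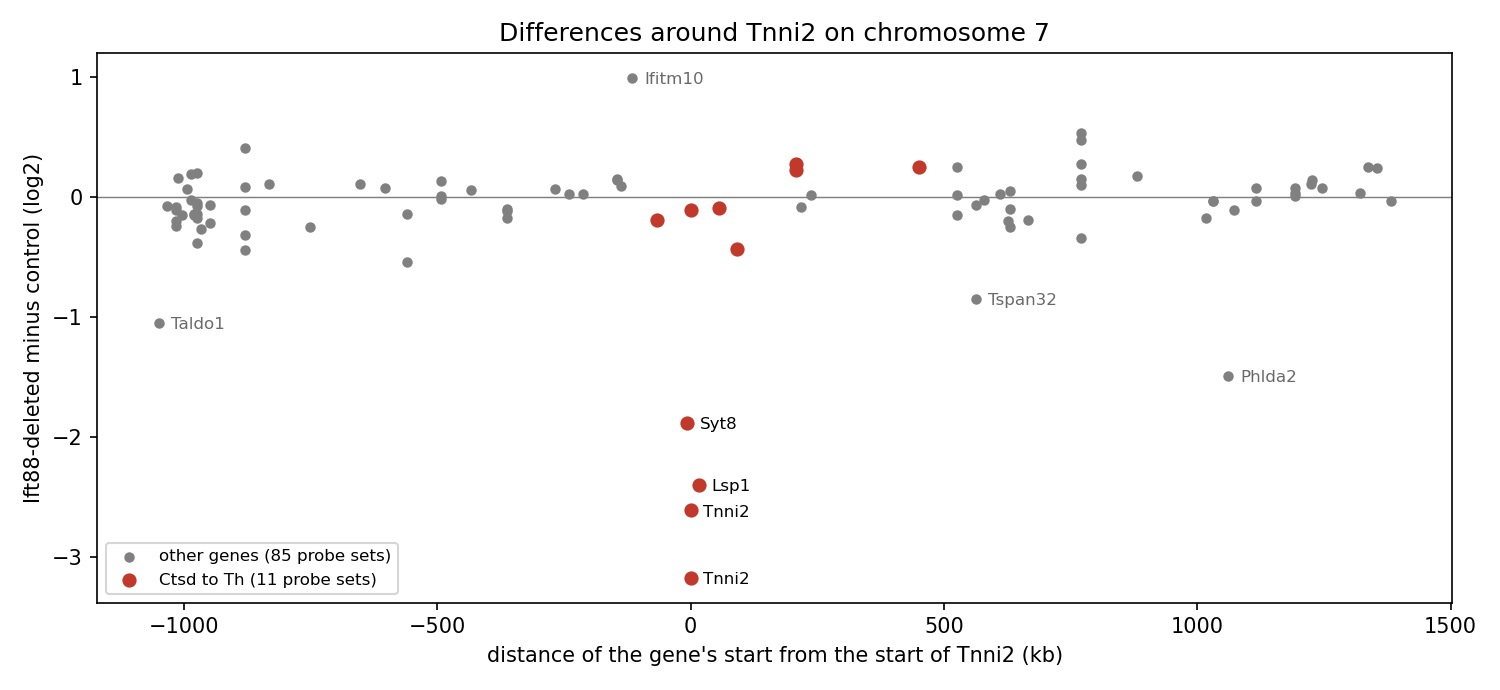
Difference of Ift88-deleted minus control means in log2 (vertical axis) against the distance of each gene's start from the start of Tnni2 in kb, with 1 point per probe set (red, Ctsd to Th; grey, the 85 probe sets of other genes). The 4 probe sets of Syt8, Tnni2 and Lsp1 at -1.88 to -3.17 lie below all 85, whose lowest is Phlda2 at -1.49.

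Runs of low neighbours were counted over all chromosomes. Taking the lowest probe set of each of 18032 genes with a position, 133 genes (0.738%) had a difference of -1 or below with groups apart. In 17988 runs of 3 consecutive measured genes, 1 consisted of such genes alone: Syt8, Tnni2 and Lsp1. It remained the only one with each array left out in turn and with the mean over a gene's probe sets. With a limit of -0.5 there were 6 such runs, among them Gmfb, Cgrrf1 and Samd4 on chromosome 14 (-1.15, -0.51 and -1.38) and Cdk13, Rala and Yae1d1 on chromosome 13 (-0.65, -0.82 and -0.80). These were named after their values were seen. This is a count, and it was made because the run had been seen.

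The profiles of the 3 genes over the 4 arrays were compared with those of all other single-gene probe sets, by Euclidean distance in log2. Lsp1 lay 0.60 from Syt8 and 0.84 from Tnni2, and Syt8 and Tnni2 were 1.37 apart. Nearest to Lsp1 were probe sets of Ptch1 (0.29), the Hedgehog receptor, Gli1 (0.31), a transcription factor induced by Hedgehog signals, Snhg14 (0.36), a non-coding RNA gene of another imprinted region of chromosome 7, the integrin gene Itgb8 (0.40) and H2-DMa (0.40), which acts in class II antigen presentation. Nearest to Tnni2 were Snhg14 (0.54), Ptch1 (0.65), Gli1 (0.73), H2-DMb2 (0.80) and Hhip (1.04), which encodes a Hedgehog-binding inhibitor. Nearest to Syt8 were the BMP family gene Gdf10 (0.26), Itgb8 (0.28), H2-DMa (0.32), Eva1b (0.37) and Ddc (0.41). Thus 5 or more genes elsewhere were closer to Lsp1 and to Syt8 than these were to each other.

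Matching by this distance fixes likeness in size, and the order of arrays within a group could still differ. Gli1, whose lower Ift88-deleted array was not that of Lsp1, was at -1.34 and -1.11 in Ift88-deleted arrays and at 1.69 and 1.11 in control arrays (-2.62). The Ptch1 probe set nearest to Lsp1 was at -1.01 and -1.02 in Ift88-deleted arrays and at 1.26 and 1.01 in control arrays (-2.15). All nearest probe sets are low in both Ift88-deleted arrays because the profiles they were matched to are. With 4 arrays, genes that share no more than this cannot be set apart.

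**Figure D3:**
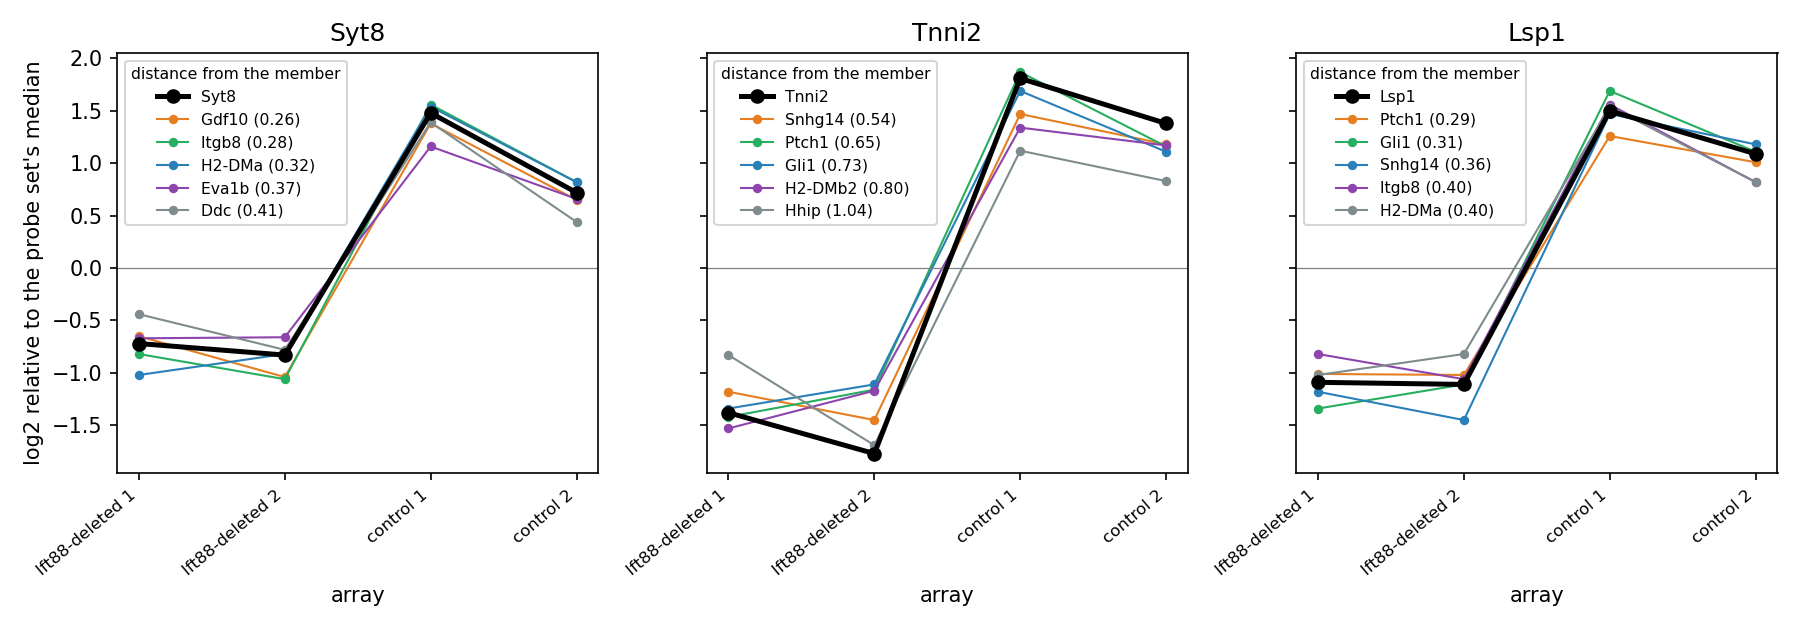
Log2 value relative to the probe set's median (vertical axis) on each array for Syt8, Tnni2 (1416889_at) and Lsp1 (black) and the 5 genes nearest to each by Euclidean distance, which is given in the legends. Distances run from 0.26 to 1.04, and every line is below 0 on both Ift88-deleted arrays and above 0 on both controls.

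Tnni2 was set beside the other genes of muscle. In 50 probe sets of 30 skeletal muscle genes the differences lay between -1.05 and 0.37, with a median of -0.0692, so that 2 of the 3 Tnni2 probe sets were lower than any of them. The lowest were Mylpf, a fast myosin light chain, at -0.38 and -0.56 in Ift88-deleted arrays and at 0.77 and 0.38 in control arrays (-1.05, SE 0.185), and Myh1, a fast myosin heavy chain (-0.91, with control 2 alone at 1.60). The highest were Ttn (0.37) and Mybpc1 (0.36). With gene means, so that each gene counted once, the median difference was -0.0627 and 22 of the 30 genes were lower. Of all 45037 probe sets 22278 were lower. Of the 50, 14 (28%) were lower in both Ift88-deleted arrays than in both controls and 8 (16%) were higher, beside 17.4% and 16.2% of all probe sets. The median over the 50 was -0.0144 and -0.0111 in Ift88-deleted arrays and -0.0582 and 0.121 in control arrays, so it was highest in control 2. Of the low Tnni2 probe sets, 1438609_x_at was also highest in control 2 (1.26, against 1.16 in control 1) and 1416889_at was highest in control 1. Summed levels cannot be had from values without levels, and 18 of the 50 were of the dimmest class. The part of muscle RNA in the Tnni2 values was not tested.

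Within the troponin complex the fast subunits differed. Tnnc2, fast troponin C, was at -0.63 and -0.50 in Ift88-deleted arrays and at 0.52 and 0.50 in control arrays (-1.08, SE 0.141), while the log2 difference was -0.095 for Tnnt3 and -3.17 or -2.61 for the brighter Tnni2 probe sets. Tnnc2 had the lowest of the 22 differences in the troponin and tropomyosin family without the members (median -0.0614). With gene means the median was -0.111, and 7 of the 10 genes were lower. After Tnnc2 the next lowest was a probe set of Tpm1 (-0.47), and the highest were Tpm2 (0.30) and another probe set of Tpm1 (0.27).

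Syt8 lay below the range of its family. Syt8, Tnni2 and Lsp1 were picked for their low values, so nothing is read from their place below such lists. The 37 probe sets of 18 other synaptotagmin and synaptotagmin-like genes had differences between -0.47 (Sytl2) and 0.38 (Syt7), with a median of 0.0152. Syt17 was at -0.21 and Syt11 at 0.36.

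Lsp1 was set beside leukocyte genes, 43 probe sets of 26 genes with a median of -0.00351. The lowest were S100a8 (-1.03, SE 0.859, groups overlapping) and Lcp1, an actin-bundling protein of leukocytes, at -0.25 and -0.53 in Ift88-deleted arrays and at 0.31 and 0.25 in control arrays (-0.67, SE 0.16). All 43 were above Lsp1 at -2.40. The highest were the class II antigen gene H2-Aa, at 1.12 and 1.47 in Ift88-deleted arrays and at -1.12 and -1.85 in control arrays (2.78, SE 0.28), and Cd53 (0.41). This H2-Aa probe set also carries the suffix x, and further probe sets of H2-Aa were at 1.24 and 0.598. The median over the 43 was -0.0104 and 0.0384 in Ift88-deleted arrays and -0.265 and 0.0974 in control arrays. Values without levels give no summed level of leukocyte RNA, and its part in the Lsp1 values was not tested.

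Igf2 was set beside its partners and beside imprinted genes. Of 45 probe sets of 16 genes around IGF2 and the H19 control region the median was -0.00368. Igf1r, the receptor through which IGF2 signals, had a probe set at -0.46 and -0.71 in Ift88-deleted arrays and at 0.71 and 0.46 in control arrays (-1.17, SE 0.172), and Igf2r, which clears IGF2 from the cell surface, one at 0.21 and 0.37 in Ift88-deleted arrays and at -0.26 and -0.21 in control arrays (0.53, SE 0.143). The lowest of the other Igf1r probe sets were at -0.99 and -0.69. Igfbp5 (-0.57, with control 2 at 2.20) and Igf1 (0.62) rested on single arrays. The 93 probe sets of 33 other imprinted genes had a median of 0.0965. Of these probe sets 23 (24.7%) were higher in both Ift88-deleted arrays and 9 (9.68%) lower, beside 16.2% and 17.4% of all probe sets. With gene means, so that each gene counted once, the median was 0.0381 and 14 of the 33 genes were lower. Control 1 was low for this list (median -0.125, against -0.0211 and 0.0582 in Ift88-deleted arrays and 0.0216 in control 2), as it was for Igf2. Its extremes were Phlda2 (-1.49), Tspan32 (-0.85), the matrix proteoglycan gene Dcn (1.00) and the non-coding RNA gene Rian (0.86). The values of Dcn and Rian rested mainly on control 1. Dcn was at -1.40 in control 1 and -0.14 in control 2, and Rian at -1.58 and -0.022.

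Some markers of other cells in or around the zone differed widely between arrays of one group. Erythroid genes (10 probe sets, median -0.127) had Slc4a1 at -2.23 and 0.60 in Ift88-deleted arrays and at -0.60 and 2.58 in control arrays, and the log2 differences of Ermap (-0.68) and Hba-a1 (0.10) came with overlapping groups. Bone genes (17 probe sets, median -0.0366) had a median of 0.0547 with gene means, where 4 of 9 genes were lower. In this list Postn was at 3.47 on 1 Ift88-deleted array and -0.65 on the other. The log2 differences were -0.93 for Ibsp and 0.20 for Col1a2, with overlap, and -1.14 for Dmp1, with groups apart. Chondrocyte genes (35 probe sets, median -0.0136) ran from -0.54 (Comp) and -0.47 (Hapln1) to 0.25 (Col2a1) and 0.26 (Col9a1). In these 9 lists 0 probe sets passed limma's adjusted threshold, beside 0.0444% of all. At an unadjusted p under 0.05 there were 4 lower and 0 higher for bone, 4 lower and 2 higher for the IGF2 partners, 2 lower and 10 higher for imprinted genes and 1 lower and 3 higher for leukocytes. The troponin family had 2 lower, skeletal muscle and chondrocyte genes 1 lower each, and the synaptotagmin and erythroid lists 0. Of all probe sets 6.17% had such a p. A gene with several probe sets can enter these counts more than once.

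**Figure D4:**
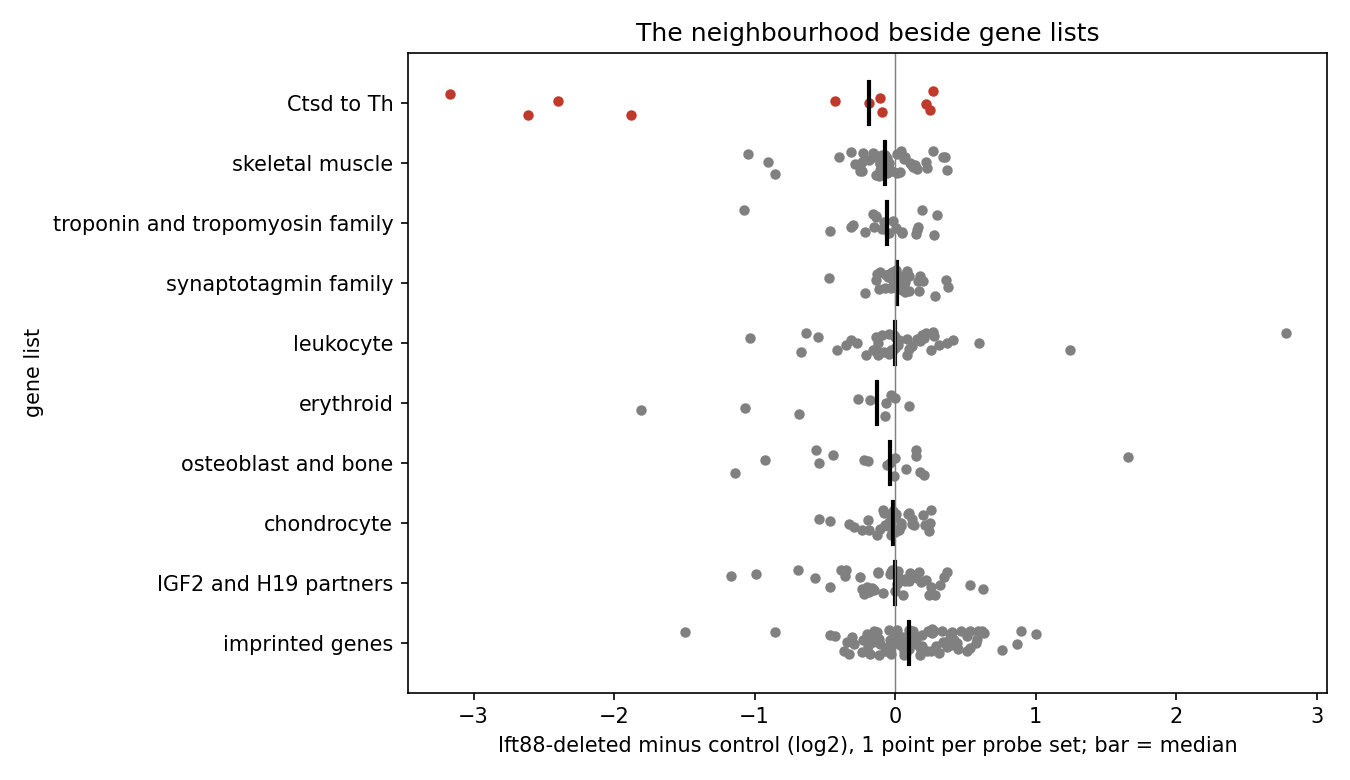
Difference of Ift88-deleted minus control means in log2 (horizontal axis) of each probe set, by gene list, with the neighbourhood on top and a bar at each median. The 4 lowest points of the neighbourhood lie between -3.17 and -1.88, lower than every point of the lists beneath.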

How the data were processed

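RNA of growth plate chondrocytes was hybridised to 4 Affymetrix mouse arrays. The authors deposited log2 values made with RMA, per the submitters' processing notes, which give no version; the log base was inferred. The median of every probe set over the 4 arrays was 0 (largest departure 5e-07), so differences are kept and levels are lost. A coarse class of the lowest original value was read from the single-precision steps of the values: 25.6% of probe sets at 8 or more, 56.6% at 4 to 8 and 17.7% at 2 to 4. It is approximate, since 16.2% of the brightest class also sat on the next coarser step.

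The 64 control probe sets were left out. The other 45037 entered limma 3.58.1 under R 4.3.3 (group only, eBayes without trend, 3.46 prior and 2 residual degrees of freedom), with two-sided p-values adjusted by Benjamini-Hochberg. The trend asked for in the design needs levels and was dropped. The fit was tested on simulated data before use.

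Probe sets that name 1 gene took their symbol and position from RefSeq's GRCm38.p6 table through the gene ID. The members and the gene lists were chosen with earlier results of these data known, so no p-value is given for a member. Genes are named as follows: all members, the 3 nearest measured genes on each side, neighbours with a log2 difference of 1 or more in size, the 2 extremes per direction of each list, and the 5 genes nearest in profile to Syt8, Tnni2 and Lsp1. Alternatives were renewed quantile normalization, array medians, gene means, the dimmest class left out, other moderation, a threshold of 0.1, a replicate block and leaving out each array. The number of arrays limits the precision.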

Additional observations from a re-analysis of the deposited data

How the results depend on the processing

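The differences of the 11 probe sets stayed within their replicate SD under renewed quantile normalization and subtraction of array medians. They also did with the replicate block and with each array left out, but these settings could not show otherwise. With 2 arrays per group the block leaves a difference unchanged, and leaving out 1 array moves it within the replicate spread by construction. Leaving out the dimmest class removed Tnni2 1438608_at and cannot change the difference of the 10 that remained. The exception was the mean over a gene's probe sets, which put Tnni2 at -1.96. With single arrays left out their median ran from -0.427 to -0.123 (-0.427 without control replicate 2), and the number lower with groups apart was 7 or 8. Of all 45037 probe sets 20 passed. The count was 2 with gene means, 5 with the replicate block, 2 without moderation of the spread and 9 to 12 with an array left out, and the cause was not tested. The labels do not say that replicate numbers pair the samples, and deviations of same-numbered arrays had a correlation of 0.102. Runs of 3 low neighbours numbered 6 with a limit of -0.5. Signal over background was not available, so what it limits could not be given.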

Other observations

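The probe set named for both Mir675 and H19, which share a transcript, could not be given to either gene. It was at 0.022 and -0.021 in Ift88-deleted arrays and at -0.073 and 0.021 in control arrays, a difference of 0.026 (SE 0.138), with overlapping groups and a lowest original log2 value of 8 or more.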
